A study of Mus musculus with 12 samples.

Results

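Late-numbered mouse microRNAs, those whose name carries a number of 5000 or higher, were followed through extracellular vesicles of mouse plasma. A name was kept when it had at least 5 raw counts in at least 3 of the 12 libraries. This left 133 names of the 785 late-numbered names in the table, which itself holds 1915 mouse names. The names were thus selected on their raw counts over all libraries, so their abundance is described here without a test. The animals were male C57BL/6J mice, an inbred laboratory strain, sampled 8 days after surgery: 6 libraries follow bile duct ligation (BDL) and 6 follow sham surgery. In BDL the duct that drains bile from the liver is tied shut, and bile that cannot leave damages the organ. No allele or drug is named for either group, and no age is given. Each library carries a code whose last 2 digits are 24 or 26, with 3 libraries of each operation under each suffix. Neither these digits nor the leading digit, which pairs of libraries of the same operation share, are explained in the labels. The tissue is labelled liver, but the sampling site and the protocol are those of vesicles isolated from plasma.

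MicroRNAs are short RNAs that guide Argonaute proteins to messenger RNAs, and bases 2 to 8 from the 5′ end, the seed, do most of the pairing. Their numbers are given in order of registration, so high numbers belong to entries registered late, many of them from deep sequencing and with few reads behind them. A precursor hairpin can give a product from its 5′ side (5p) and from its 3′ side (3p). Mirtrons are hairpins made from short introns: splicing, rather than the enzyme Drosha, frees at least one end, and a 3p product cut there ends with the AG that closes an intron. Vesicles carry microRNAs out of cells into plasma, where the liver's miR-122 and the red cell's miR-451a are commonly abundant. For most late-numbered names no function is settled, so they are described here by sequence, genomic place and level.

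RefSeq gave a mature sequence for 116 of the 133 names, on build GRCm38.p6. The following 10 passed the test of BDL against sham and had such a sequence. They are written 5′ to 3′ with the seed in capitals, and miR-7117-3p is added because it shares the seed of miR-6948-3p.
miR-6964-5p: uUGGGGUGugagacuggaaac
miR-6948-3p: uGUCCUUCcugucugaccaca
miR-7117-3p: uGUCCUUCucuuucccccag
miR-6538: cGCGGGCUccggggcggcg
miR-5126: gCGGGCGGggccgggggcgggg
miR-6988-3p: uGACCUCUguaucuccugccag
miR-7043-3p: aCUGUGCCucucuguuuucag
miR-8112: uCUCCGCCaccuccaccgca
miR-5129-5p: aUGUGGGGgcauugguauuuuc
miR-5134-3p: aCGGGUGGcccucuuucugcag
miR-6967-3p: uCAUCUUUaucucuccccag
The seeds of these 10 names all differed. miR-5126 is made of G and C alone (GC 100%), and miR-6538 nearly so (94.7%).

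The abundant miR-5106 and the names whose BDL difference depended on the code suffix are shown next, again with the seed in capitals.
miR-5106: aGGUCUGUagcucaguuggcaga
miR-8117: gCUCGUGUggaacagaagggg
miR-6372: aGAACUGGggaaacuuccagccu
miR-8114: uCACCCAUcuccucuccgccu
miR-5106 holds the stretch UAGCUCAGUUGG, which resembles the A box inside tRNA genes. Searched on both strands, it occurred in 1 of the 1623 mouse names with a sequence (0.0616%).

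Among the late-numbered names many 3p sequences stopped where an intron stops. Of 43 late-numbered 3p names with a sequence, 26 (60.5%) ended on the last base of a GENCODE M21 intron, and all of those ended in AG. Among lower-numbered names that met the same count rule, 4 of 181 (2.21%) did so. The trinucleotide CAG closed 22 (51.2%) of the late-numbered 3p sequences and 5 (2.76%) of the others. The feature was most frequent from 6000 to below 7000, at 15 of 17 names (88.2%), and reached 10 of 22 (45.5%) from 7000 to below 8000. Examples follow with their last bases in capitals, the first 4 of them past the test and miR-7070-3p and miR-7117-3p not tested for low counts.
miR-6988-3p: ugaccucuguaucuccugccAG
miR-7043-3p: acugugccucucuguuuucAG
miR-5134-3p: acggguggcccucuuucugcAG
miR-6967-3p: ucaucuuuaucucuccccAG
miR-7070-3p: caggcucuccuucccuccAG
miR-7117-3p: uguccuucucuuucccccAG
The bases before that AG are mostly C and U.

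**Figure D1:**
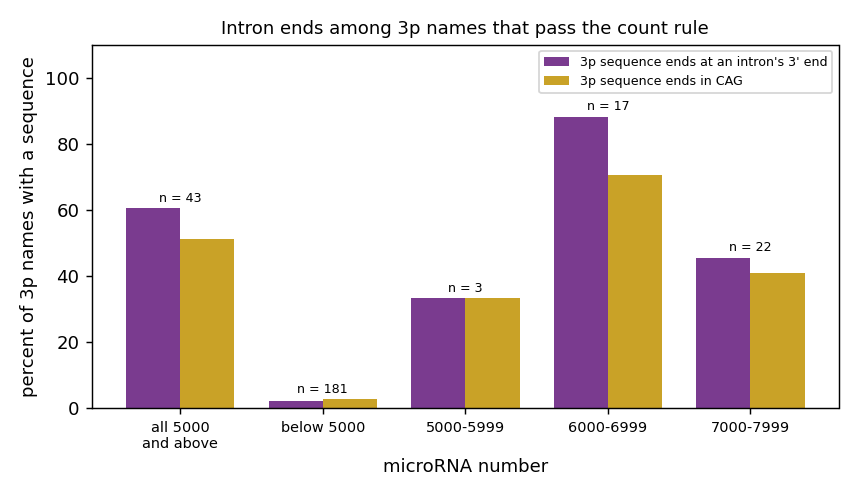
Percent of 3p names with a RefSeq sequence that end exactly at the 3′ end of an annotated intron (purple) or in CAG (yellow), by microRNA number; n gives the 3p names in each set. Names from 6000 to below 7000 stand highest at 88.2%, and lower-numbered names that met the same count rule lowest at 2.21%.

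The hairpins showed the same position. Within 5 bases of an intron's 3′ end lay 55 (47.4%) of the 116 placed late-numbered names and 14 (3.51%) of 399 lower-numbered names. Introns held 71 late-numbered names (61.2%) against 173 (43.4%), exons 24 against 106, and 21 against 120 lay outside genes of the same strand. Names without a 5p or 3p ending made up 41 of the 133 (30.8%) and 51 of 467 (10.9%). Median GC was 58.7% against 50%, and median length was 22 bases in both sets. An 18-base stretch recurred in transcripts of other genes for 17 late-numbered names (14.7%) and 41 lower-numbered ones (10.3%). It recurred in 53 genes for miR-7667-5p and in 12 for miR-5128, and miR-5121 shares its stretch with the small nucleolar RNA Snord33. Counts of such names are uncertain, since reads of another transcript could carry the same sequence. The search covered GENCODE M21 transcripts, and the gene holding the hairpin itself was not counted. Sequences of cytosolic tRNAs and of the long ribosomal RNAs were not available, so no name was compared with them. Names without a match are therefore not shown to be free of such reads.

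Late-numbered names were sparse. Their median was 71 counts summed over 12 libraries, against 395 for the 467 lower-numbered names that met the rule. That rule was met by 16.9% of late-numbered names and by 41.3% of lower-numbered ones. A count of 5 or more in every library was found for 22 names, and 8 names met the rule with no sham library and 2 with no BDL library at 5 counts. At the edge of the rule stood miR-7091-5p, miR-7094-3p and miR-6347 with 17, 24 and 27 counts in all. Just outside it lay miR-7048-3p and miR-5116 with 39 and 36 counts, and miR-7225-5p with 131, of which 105 came from the library sham 3.

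Depth differed between libraries and moved with the code suffix. Mouse counts ran from 121003 (BDL 4) to 3506914 (BDL 1), which puts the limit that a count of 0 allows, 3 counts, at 24.8 and 0.855 counts scaled to a library size of 1e6 (CPM). BDL libraries of suffix 26 held 121003 to 666310 counts, BDL 24 1635616 to 3506914, sham 26 659302 to 2388515, and sham 24 1380297 to 2684636. The liver's miR-122-5p stood at 57663 to 326603 CPM in BDL and 2897 to 22753 in sham, and the red cell's miR-451a at 437 to 3217 and 7266 to 13201. Of 15 marker microRNAs of liver, red cells, leukocytes, platelets and endothelium, and striated muscle, 11 had a lower median in BDL. Their sums in BDL and sham were 86.7 to 865 and 620 to 1665 CPM for leukocytes, 611 to 3569 and 2923 to 8732 for platelets and endothelium, and 636 to 1611 and 1083 to 2119 for muscle. A value of 0 occurred in BDL libraries for miR-144-3p, miR-142a-3p, miR-223-3p and miR-206-3p. The part of these cell types in the differences below was not tested, and in plasma, fewer vesicles of a kind and less RNA per vesicle cannot be told apart.

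At least 1 count was found for 66 (BDL 4) to 130 (BDL 1) of the 133 names. BDL libraries had 109.8 ± 23.9 of them (SD, n = 6) and sham libraries 117 ± 10.4 (SD, n = 6). Together the names took 0.559 ± 0.257% (SD, n = 6) of mouse counts in BDL and 0.544 ± 0.183% (SD, n = 6) in sham, and the ranges overlapped. Under suffix 24 the BDL shares were 0.280, 0.411 and 0.402%, and the sham shares 0.861, 0.614 and 0.462%. Under suffix 26 they were 0.739, 0.976 and 0.544% in BDL, and 0.443, 0.333 and 0.553% in sham. All BDL shares were therefore below all sham shares under suffix 24, whereas under suffix 26 the BDL share was mostly the higher. The 10 leading names held 69.1 to 88.8% of these counts, and miR-8117 and miR-5106 alone held 32.7 to 67.7%.

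**Figure D2:**
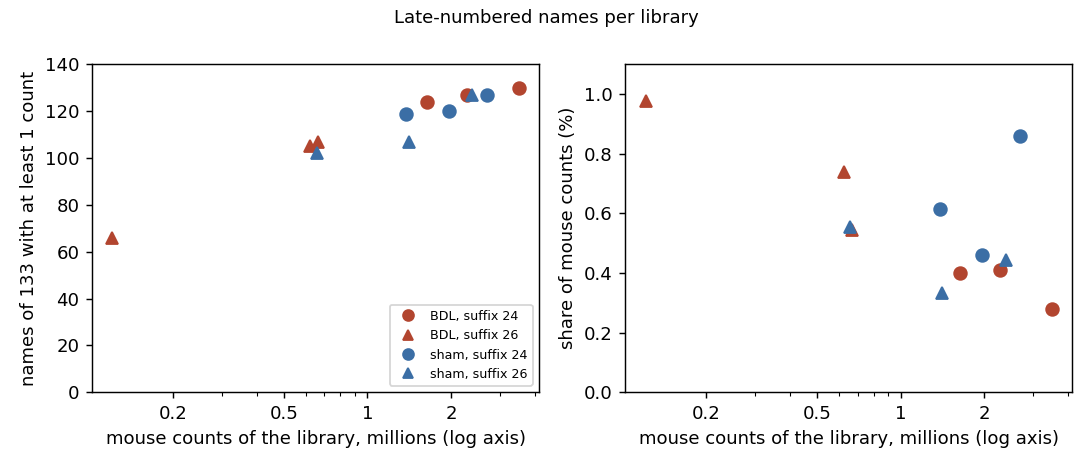
Left, how many of the 133 late-numbered names had at least 1 count in each library; right, their percent of the library's mouse counts; both against the library's mouse counts (log axis), with colour for the operation and shape for the code suffix. The shallowest library, BDL 4, had 66 names, and the BDL libraries of suffix 24 had shares of 0.280 to 0.411%.

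BDL was then compared with sham, to find which vesicle microRNAs differed 8 days after the bile duct was tied. Of the 133 names, 45 passed edgeR's filter on low counts, and 9 of them rose and 3 fell (quasi-likelihood F test; Benjamini-Hochberg adjustment over all 341 mouse names tested, threshold 0.05). The background was 24.6% of all names tested for a rise and 18.2% for a fall, and among late-numbered names it was 20.0% and 6.67%. Their log2 fold changes ran from -1.84 to 4.16 with a median of 0.18, beside a median of 0.03 over all names tested. The filter kept 44 names with 5 counts in at least 3 libraries of each operation, and miR-6948-3p, which reached that in BDL only. For miR-6964-5p and miR-6948-3p the level that the filter asks for was reached in BDL libraries only. Their entry into the test thus depended on high BDL levels, and their p-values are descriptions.

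The largest rise among the 45 names tested was that of miR-6964-5p, which lies at chr16:97877266-97877286 (minus strand, GRCm38.p6) in an intron of C2cd2. It had a lowest, median and highest level of 5.83, 43.1 and 151 CPM in BDL and 1.92, 2.91 and 6.10 in sham. The 3 BDL libraries of suffix 26 stood above all others, and the lowest BDL library lay just under the highest sham library. Its log2 fold change was 4.16 ± 0.82 (SE, adjusted p = 0.000772), or 17.9-fold, with the filter met through BDL libraries only. Without BDL 2 the log2 fold change was 3.25 (adjusted p = 0.00315), and without BDL 1 or BDL 3 the name missed the filter.

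miR-5126 (chr1:84695890-84695911, plus strand, outside genes) had 21.6, 105 and 658 CPM in BDL against 13.5, 20.9 and 39.4 in sham. The top value came from BDL 2, and the groups overlapped. The log2 fold change of 3.01 ± 0.71 (SE, adjusted p = 0.00271) became 1.77 without that library and stayed past the threshold. Under suffix 24 it was 0.99 (edgeR adjusted p = 0.102) and under suffix 26 3.52 (adjusted p = 0.000462). The edgeR test of the difference between suffixes gave adjusted p = 0.0556. The other GC-rich name, miR-6538, lies at chr12:26414970-26414988 (minus strand) in an intron of Rnf144a, an E3 ubiquitin ligase gene. It had 17.3, 52.4 and 73.7 CPM in BDL and 5.29, 14.2 and 18.8 in sham, a rise of 1.91 ± 0.45 (SE, adjusted p = 0.00256) with 1 BDL library inside the sham range.

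In 3 of the 45 names every BDL library lay above every sham library, and in none did every one lie below. Over all names tested the shares were 11.7% and 9.38%. All of these 3 are 3p products. miR-6948-3p (chr14:54643050-54643070, minus strand, intron of Acin1, whose protein binds spliceosomal complexes) had 7.48, 12.7 and 40.0 CPM in BDL and 0.346, 2.27 and 4.57 in sham. Its log2 fold change was 2.49 ± 0.53 (SE, adjusted p = 0.00143), a description, since it met the filter through BDL libraries only. miR-6988-3p (chr19:6051371-6051392, plus strand) ends an intron of Syvn1, a ubiquitin ligase gene of the endoplasmic reticulum. Its levels were close within each group, at 16.2, 23.3 and 32.0 CPM in BDL and 7.62, 9.38 and 14.1 in sham, with a log2 difference of 1.16 ± 0.31 (SE, adjusted p = 0.00623). miR-6979-3p had 12.3, 16.6 and 36.7 CPM in BDL and 3.02, 5.78 and 10.0 in sham, 1.54 ± 0.40 higher on the log2 scale (SE, adjusted p = 0.00566). In the shallow library BDL 4 miR-6948-3p had 5 counts, miR-6988-3p 4 and miR-6979-3p 2. The highest BDL values of miR-6948-3p and miR-6988-3p, 40.0 and 32.0 CPM, are those counts. In BDL 4 the lack of overlap thus rests on few counts.

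The most abundant riser was miR-5099, at 248, 351 and 507 CPM in BDL and 104, 161 and 293 in sham. Sham 6 alone reached into the BDL range, and the log2 fold change was 1.06 ± 0.29 (SE, adjusted p = 0.00702). The other risers were less firm. miR-7043-3p (chr6:116645978-116645998, minus strand, at an intron end of Rassf4) had 16.9, 23.4 and 58.7 CPM against 7.06, 10.8 and 25.9, a log2 difference of 1.18 ± 0.43 (SE, adjusted p = 0.0336). It missed the threshold in 8 of 12 fits that each left out 1 library. miR-8112 (chr6:71271745-71271764, plus strand) lies in the untranslated first exon of Krcc1. With 41.5, 97.5 and 196 CPM against 35.0, 53.8 and 61.4 it was 1.02 ± 0.37 higher (log2, SE, adjusted p = 0.0356), and missed the threshold in 9 of those 12 fits. Without BDL 2 its log2 fold change was 0.57 (adjusted p = 0.192).

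The 3 names that fell all come from introns. miR-5129-5p (chr2:45023146-45023167, minus strand) sits in Zeb2, the gene of a zinc-finger repressor. It had 5.83, 12.2 and 56.0 CPM in BDL and 20.2, 36.6 and 162 in sham. The highest value belonged to sham 1, with the other sham libraries at no more than 39.6 CPM. Its log2 fold change of -1.84 ± 0.59 (SE, adjusted p = 0.0176) became -1.14 (adjusted p = 0.0760) without sham 1. Under suffix 24 it was -3.07 (edgeR adjusted p = 0.00387) and under suffix 26 -0.36 (adjusted p = 0.646). The edgeR test of the difference between suffixes gave adjusted p = 0.0748.

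miR-5134-3p (chr17:24234535-24234556, minus strand) ends an intron of Ccnf, the cyclin F gene. It had 1.80, 3.71 and 7.99 CPM against 5.29, 10.1 and 24.4, a log2 difference of -1.55 ± 0.52 (SE, adjusted p = 0.0223). Its lowest and highest BDL levels, 1.80 CPM in BDL 2 and 7.99 CPM in BDL 4, are 1 count each. In 6 of the 12 fits that left out 1 library it no longer met the filter. miR-6967-3p ends an intron of the kinesin gene Kifc5b (chr17:26921000-26921019, plus strand) and has 2 loci, which its counts cannot tell apart. It had 0, 7.79 and 17.2 CPM in BDL, the 0 being BDL 4, and 4.57, 25.1 and 27.4 in sham, where sham 6 was the low one. A count of 0 in BDL 4 allows up to 24.8 CPM, close to the sham median, so that library cannot be said to be low. The log2 fold change was -1.26 ± 0.46 (SE, adjusted p = 0.0365), and 7 of the 12 fits lost the call.

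**Figure D3:**
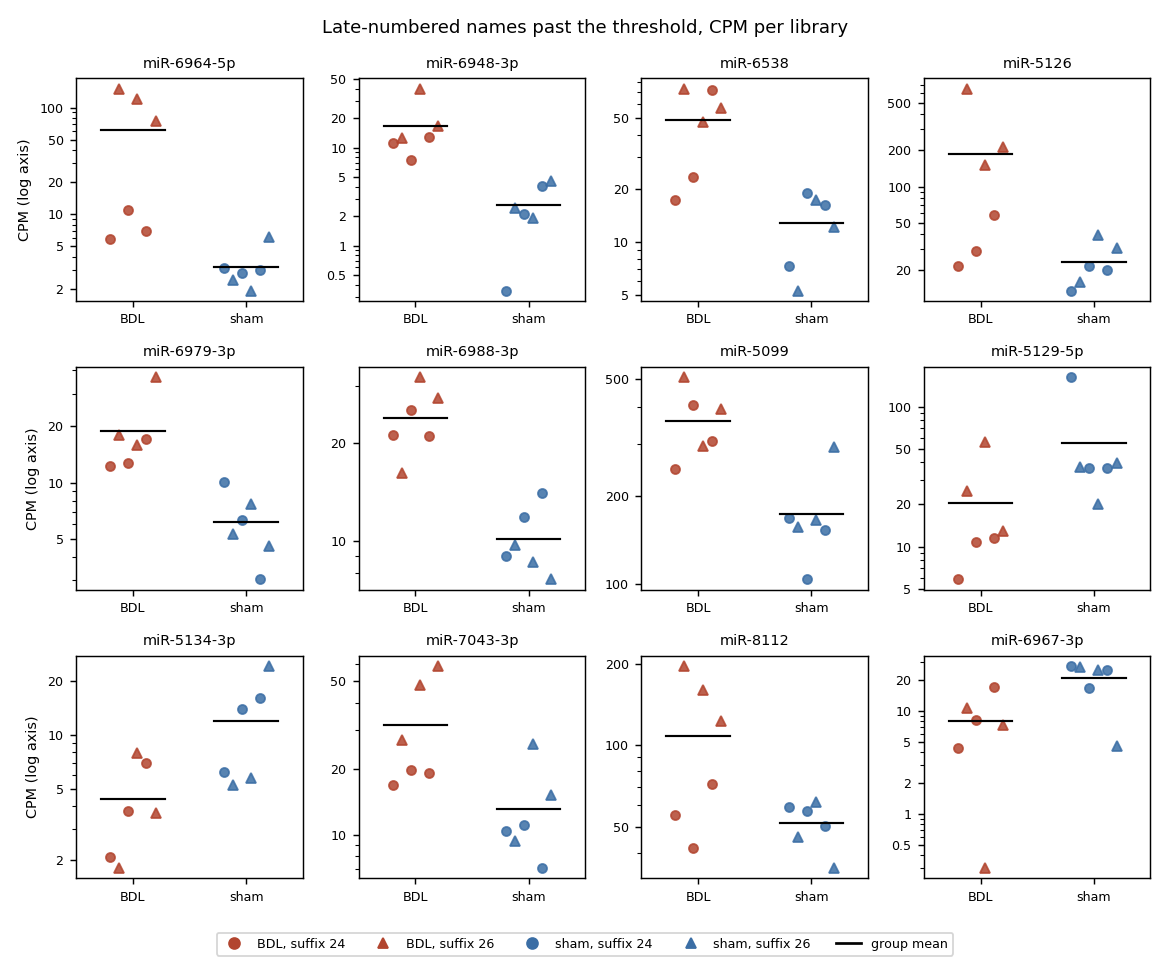
CPM per library (log axis) of the 12 late-numbered names past the threshold, ordered by adjusted p, with colour for the operation, shape for the code suffix and a bar for the mean of 6; the count of 0 of miR-6967-3p in BDL 4 is drawn at the foot of its panel. BDL and sham points do not overlap for miR-6948-3p, miR-6979-3p and miR-6988-3p, and the highest miR-6964-5p points are the BDL libraries of suffix 26.

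By number, 5 rose and 1 fell among 15 names tested from 6000 to below 7000, and 2 rose and 2 fell among 15 below 6000. From 7000 to below 8000 1 of 8 rose, and from 8000 up 1 of 7. Over all names tested 24.6% rose and 18.2% fell, and with so few names per block no pattern by number is drawn. By arm, 4 of 14 3p names rose and 2 fell, 1 of 7 5p names rose and 1 fell, and 4 of 24 names without an arm rose. Among lower-numbered names tested, 29.2% of 3p names rose and 17.7% fell. It was 18.4% and 23.5% for their 5p names, and 40% and 13.3% for those without an arm. Of the 26 3p names that end at an intron end, 5 could be tested: 2 rose, 2 fell, and 1 did not pass. Across 38 tested names with a sequence, GC percent and log2 fold change had a Spearman correlation of 0.03, against 0.52 across 252 lower-numbered names. These names share the same 12 libraries, so the correlations are descriptions only.

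Of the 10 names with the highest mean level over the 12 libraries, miR-5126 and miR-5099 rose, as given above, and the other 8 did not pass the test. Among these, miR-5106 stood at 1228 ± 505 CPM (SD, n = 6) in BDL and 1551 ± 340 (SD, n = 6) in sham, with a log2 fold change of -0.34. miR-8117 had -0.20, miR-5112 -0.27, miR-6239 0.37, miR-7676-3p -0.06 and miR-6240 -0.60 (edgeR adjusted p from 0.149 to 0.938 for these 6 names).

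The filter left 88 names untested, with 17 to 192 counts each over all libraries (median 46). Among them miR-7224-3p, miR-7667-3p and miR-7070-3p had nearly all their counts in BDL. They are 3 of the 8 names that met the count rule with no sham library at 5 counts. Of the untested names, these 3 were picked because they passed the threshold in a fit with no count filter. Their high ratios and intervals follow in part from how they were picked, so no test is drawn from them. miR-7224-3p had 54, 12, 16, 5, 9 and 10 counts in BDL libraries 1 to 6 and 1 count in all sham libraries together, that of sham 2. The ratio pooled over libraries was 125.8 (exact 95% interval 22.1 to 5014, counting error only). miR-7667-3p (chr17:29595579-29595600, plus strand, intron of Tbc1d22b) had 17, 16, 8, 2, 7 and 11 counts in BDL and 3 in sham, a ratio of 24.1 (7.88 to 120). miR-7070-3p, at an intron end of Fbxw9 (chr8:85062152-85062171, plus strand), had 37 counts in BDL and 5 in sham, a ratio of 8.78 (3.44 to 28.6).

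The BDL difference depended on the code suffix for some late-numbered names. Of 8 names past the threshold in the test of that dependence, 2.35% of the 341 tested, 4 were late-numbered: miR-6964-5p, miR-6372, miR-8117 and miR-8114. For each, the BDL difference was more positive under suffix 26, as for 1.47% of all names tested. No late-numbered name went the other way past the threshold, and 3 of the lower-numbered ones did. miR-6964-5p met the filter through BDL libraries only, so its place among the 4 is a description.

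miR-8117, from an intron of the pseudogene Gm7205 (chr5:50252823-50252843, plus strand), had 272, 522 and 701 CPM in BDL and 4096, 1162 and 923 in sham under suffix 24. Under suffix 26 it had 1466, 3317 and 1696 CPM in BDL and 619, 907 and 1347 in sham. The groups parted in opposite directions, with no overlap under either suffix. Its log2 fold change was -2.02 ± 0.53 (SE, adjusted p = 0.0148) under suffix 24 and 1.17 ± 0.43 (SE, adjusted p = 0.0471) under suffix 26, and the difference between them was 3.22 ± 0.73 (SE, adjusted p = 0.0196; edgeR).

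miR-6372 (chr11:26202258-26202280, plus strand, outside genes) had 30.4, 93.2 and 57.4 CPM in BDL and 532, 140 and 70.0 in sham under suffix 24. Under suffix 26 it had 320, 687 and 279 CPM in BDL and 79.7, 77.7 and 189 in sham. BDL and sham overlapped under suffix 24 only. Its log2 fold changes were -2.01 ± 0.64 (SE, adjusted p = 0.0337) and 1.87 ± 0.52 (SE, adjusted p = 0.0107), and their difference was 3.92 ± 0.88 (SE, adjusted p = 0.0196; edgeR). miR-8117 and miR-6372 were the only names of the 264 tested under both suffixes to pass in opposite directions.

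miR-8114 lies in the untranslated first exon of Glul (chr1:153899989-153900009, plus strand), the glutamine synthetase gene. Under suffix 24 it had 66.2, 103 and 177 CPM in BDL and 214, 357 and 271 in sham, and under suffix 26 571, 607 and 270 against 194, 281 and 230. Here the groups overlapped under suffix 26 only. It fell under suffix 24 by 1.25 on the log2 scale (SE 0.37, adjusted p = 0.0243), and under suffix 26 its log2 fold change was 0.98 (adjusted p = 0.0690). The difference was 2.31 ± 0.57 (SE, edgeR adjusted p = 0.0323).

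For miR-6964-5p the direction was the same and the size differed. Its log2 fold change was 1.41 ± 0.57 (SE, adjusted p = 0.0760) under suffix 24 and 5.10 ± 0.58 (SE, adjusted p = 3.73e-05) under suffix 26, a difference of 3.82 ± 0.78 (SE, adjusted p = 0.0115; edgeR). It was also the 1 late-numbered name of 9 past the threshold for suffix 26 against suffix 24 with the operation in the model (2.64% of names tested), at 2.46 (adjusted p = 0.0473). That call was lost in 6 of the 10 fits that left out 1 library and could test the name. With all libraries and within each suffix, miR-6964-5p met the filter through BDL libraries only, so these p-values are descriptions.

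**Figure D4:**
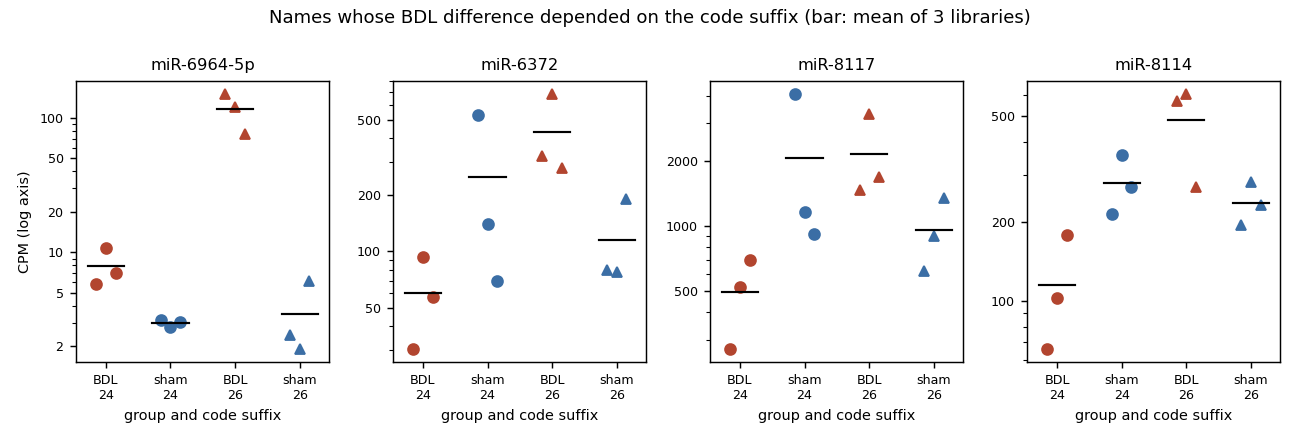
CPM per library (log axis) of the 4 names whose BDL difference depended on the code suffix, for BDL (red) and sham (blue) under suffix 24 (circles) and 26 (triangles), with a bar at the mean of 3 libraries. For miR-8117 all BDL points lie below the sham points under suffix 24 and above them under suffix 26, and for miR-6372 they overlap under suffix 24.

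Other late-numbered names also leaned towards suffix 26. Of 28 late-numbered names tested under both suffixes, 25 (89.3%) had the higher log2 fold change under suffix 26, with medians of -0.45 and 0.91. Over all 264 names tested under both it was 116 (43.9%), with medians of 0.07 and 0.13. Some lower-numbered names leaned the same way, such as miR-3473b (1.04 and 3.75), miR-3470a (1.82 and 4.72) and miR-1895 (0.29 and 4.10), so the lean was not limited to late numbers. Under suffix 24, 60 late-numbered names were tested, of which 4 rose and 5 fell, beside 18.4% and 12.9% of all names (31.3% in either direction). Under suffix 26, 29 were tested, of which 10 rose and none fell, beside 20.4% and 18.1%. At an unadjusted p under 0.05 edgeR had 13 higher and 1 lower there (44.8% and 3.45%), against 24.2% and 24.2% of all names tested. The risers include miR-7224-3p under suffix 24 and miR-7667-3p under suffix 26, which met the count rule through BDL libraries only. Under suffix 26, miR-6964-5p, miR-6952-3p, miR-6538, miR-6979-3p and miR-7667-3p reached the level that edgeR's filter asks for in BDL libraries only. Under suffix 24 this held at least for miR-6964-5p, miR-7224-3p and the riser miR-5129-3p. Such sparse names could enter these tests only with high BDL levels. The counts under both suffixes and the 25 of 28 names are therefore descriptions. miR-5128 (2.36, adjusted p = 0.00286) and miR-6952-3p (1.97, adjusted p = 0.0148) rose under suffix 26 and had log2 fold changes of -0.47 and -0.61 under suffix 24 (edgeR adjusted p = 0.552 and 0.433). For these names the test of the difference between suffixes gave adjusted p = 0.0544 and 0.0618.

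**Figure D5:**
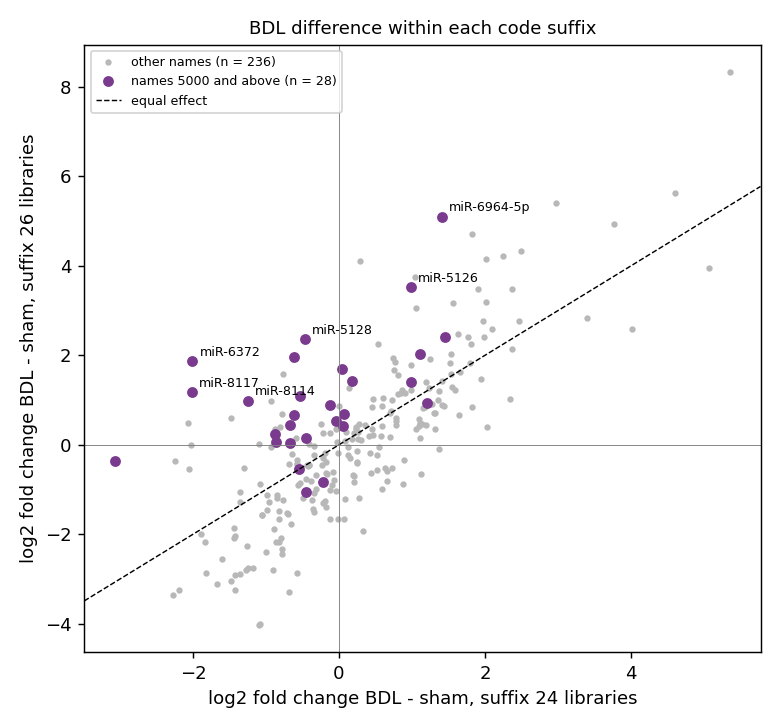
Log2 fold change of BDL against sham in the 6 libraries of suffix 24 (horizontal) and of suffix 26 (vertical) for the 264 names tested in both; purple points are the 28 late-numbered names, grey points all others, and the dashed line marks equal values. Of the purple points, 25 lie above the dashed line.

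Single libraries weighed on these values. Without BDL 1, without sham 1 or without sham 2, no late-numbered name passed the test of the difference between suffixes. At an unadjusted p under 0.05 it was 10, 13 and 12 names there in either direction (23.3, 27.1 and 25.5% of late-numbered names tested), against 15.0, 17.0 and 15.1% of all names tested. The log2 differences kept their sign, at 2.24 for miR-8117 and 2.69 for miR-6372 without sham 1, except that miR-6964-5p missed the filter without BDL 1. miR-6964-5p also lost the call without BDL 2 (adjusted p = 0.0515), miR-8117 and miR-6372 without sham 4 (adjusted p = 0.0615 and 0.0616), and miR-8114 in 10 of the 12 fits that left out 1 library. Among sham libraries, sham 1 was at least 2 times the highest other one in 7 names tested, including miR-5129-5p (4.08 times), miR-8117 (3.04) and miR-6372 (2.82). Sham 6 stood that high in more names, 13, of which 1 was late-numbered. With sham 1 left out, the suffix 24 log2 fold changes were -1.04 for miR-8117 (adjusted p = 0.0734) and -0.77 for miR-6372 (adjusted p = 0.259), while that of miR-8114 was -1.42 (adjusted p = 0.0282). The shallowest library, BDL 4, was at least 2 times the next BDL library in 19 names, 8 of them late-numbered, and BDL 1 in 10, 0 of them late-numbered. The 3 BDL libraries of suffix 26 and sham 6 were the shallowest of all, and the part of depth in these differences was not tested.

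Both arms met the count rule for 12 hairpins, and for 56 of the 92 names with an arm the other arm had counts but did not meet it. miR-5129 was the one pair with both arms tested. Its other product is shown with the seed in capitals.
miR-5129-3p: aAUGUGCCugugcaucucuucc
The 5p arm made up 51.2% of the hairpin's summed counts in BDL and 93.3% in sham. Sham 1 supplied 467 of the 729 sham counts of the 5p arm, and the 3p arm differed by 0.74 ± 0.49 on the log2 scale (SE, edgeR adjusted p = 0.244). Under suffix 24 the 3p arm was 1.75 higher (log2, edgeR adjusted p = 0.0342, and 0.0767 without sham 1). That value is a description, since the filter was met there through BDL libraries only, and under suffix 26 the 3p arm was not tested. miR-7676 kept nearly all counts on its 3p arm, with 1.49% on 5p in BDL and 1.43% in sham, and miR-6967 had 12.1% and 11.1% on 5p. For miR-7667 the 5p share was 18.7% of 75 counts in BDL and 90.9% of 33 in sham, with both arms sparse.

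Seeds were mostly unique. The 116 sequences held 113 distinct seeds, and 3 seeds were shared by 2 late-numbered names each. Besides GUCCUUC above these were AGGGAGG, of miR-6967-5p and miR-7016-5p, and AGGAUCC, of miR-7679-3p and miR-8116. With lower-numbered names that met the count rule, 5 late-numbered names shared a seed: miR-5129-3p with miR-455-5p, miR-6240 with miR-330-3p, miR-6349 with the muscle microRNA miR-206-3p, and both names of seed AGGGAGG with miR-1943-5p.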

How the data were processed

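Small RNA libraries were made from RNA of vesicles precipitated from plasma, per the labels' protocols, which describe no molecular identifiers, so intervals cover the error of counting only. In the deposited table the values are raw counts per microRNA name, with no normalization by the authors that its values show. The submitters' processing notes name cutadapt and STAR; for versions, build and annotation the sources used here give nothing. Samples were grouped by their titles, and all 12 columns matched a title. The design text gives 6 animals per operation. If libraries sharing a leading code digit share an animal or cage, p-values may be too small.

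The members and lists were chosen with earlier results of these data known. The 67 names of other species were left out. The tests used edgeR 4.0.16 under R 4.3.3 (TMM scaling, filterByExpr by group, quasi-likelihood F test, Benjamini-Hochberg over 341 names; biological coefficient of variation 45.5%). The code suffix entered as an interaction or an additive term. SE is the log2 fold change over the square root of F. CPM uses TMM-scaled library sizes, except depth limits and marker microRNAs, which use totals. The script was tested on simulated data. Named were members past adjusted p 0.05 in a contrast, the 10 highest in mean CPM, members past the threshold in opposite directions under the suffixes, pairs of arms, and 3 names on each side of the count rule; miR-7224-3p, miR-7667-3p, miR-7070-3p, miR-5128, miR-6952-3p, miR-3473b, miR-3470a, miR-1895, miR-5121, miR-7667-5p and names shown for a shared seed were chosen after their values were seen. Positions and hosts compare RefSeq GRCm38.p6 with GENCODE M21 on the same strand. Alternatives were other scalings, filters, DESeq2 1.42.0, limma-voom (limma 3.58.1), a block, subsets and each library left out.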

Additional observations from a re-analysis of the deposited data

Results flagged for a closer look

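Levels of 23 named microRNAs were checked in both groups of 6 for a library far from the others. In 7 of these 46 groups 1 library stood apart, where chance gives about 1 in 20. On the log2 CPM scale these were miR-6979-3p in BDL 6 (5.24, high), miR-5129-5p in sham 1 (7.35, high), miR-6967-3p in sham 6 (2.52, low), miR-7676-3p in sham 6 (8.34, high), miR-7224-3p in sham 2 (0.65, its 1 sham count), miR-7667-3p in sham 6 (1.42, high) and miR-5129-3p in BDL 4 (0.21, a count of 0). The values of miR-7224-3p, miR-7667-3p and miR-5129-3p rest on 0 or 1 counts. For miR-5129-3p the count of 0 in BDL 4 allows up to 24.8 CPM, above its highest BDL level of 12.0, so that library cannot be said to stand apart.

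The BDL difference differed between code suffixes, by the interaction test, for miR-6372 (3.92, suffix 26 minus suffix 24, log2), miR-6964-5p (3.82), miR-8117 (3.22) and miR-8114 (2.31). What the suffix stands for is not given. miR-6964-5p met the filter through BDL libraries only, so its value is a description.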

How the results depend on the processing

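Over all names tested, fits that each left out 1 library gave 65 to 89 higher and 54 to 70 lower, and for late-numbered names 7 to 10 higher and 0 to 3 lower. For the difference between suffixes they gave 2 to 14 names, 0 to 5 of them late-numbered, and for suffix 26 against 24 0 to 30 and 0 to 5. Late-numbered names that fell, with all names that fell in the same fit, numbered 1 of 55 with no count filter, 5 of 83 with DESeq2, 5 of 52 under suffix 24, 0 of 48 under suffix 26, 8 of 75 with libraries of the same leading digit summed and 1 of 58 with BDL 4 and sham 1 left out. Those that rose numbered 4 of 74 under suffix 24 and 3 of 56 there without sham 1. Over all names, 54 rose under suffix 26, and 35 fell under suffix 24 without sham 1. The difference between suffixes was past the threshold for 21 names with no count filter and for 13 without BDL 4 and sham 1. Suffix 26 against 24 gave 0 names and 0 late-numbered names with library totals only, 2 late-numbered names with no count filter and 0 with at least 10 counts in at least 6 libraries, a rule that 43 of the 133 names met. DESeq2 size factors shifted all log2 fold changes by a median of -0.13 and library totals by 0.11. BDL against sham turned direction for miR-6372 (-2.01) and miR-8114 (-1.25) under suffix 24, for miR-8114 there without sham 1 (-1.42) and with digits summed (-0.81), and for miR-8117 under suffix 26 (1.17). Single names named in the text kept direction and side of the threshold in 430 of 507 alternatives for BDL against sham; 68 lost the call and 4 gained it. It was 218 of 245 for the difference between suffixes, and 6 of 14 for suffix 26 against 24. Deviations of same-numbered libraries from their group means had correlations of -0.089 to 0.311. For numbers 5 and 6 the BDL and sham libraries were each other's best match, so these values do not settle whether the numbers pair libraries. With the replicate block 72 names rose and 61 fell, 8 and 1 of them late-numbered. The alternatives with BDL 4 or sham 1 left out together or within suffix 24 were chosen after seeing the data.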
